A study of Equus caballus with 19 samples.

Results

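The DNA replication genes described here are 37 named genes that encode the machinery that copies the genome, from the loading of the helicase to the packing of new DNA into chromatin. They were chosen by gene name, and 36 of the 37 matched a row among the 29196 gene names of both deposited tables. CHAF1A, a subunit of the chromatin assembly factor CAF-1, was not analysed here. All 36 matched genes had at least 10 normalised counts in enough libraries to be tested in both batches (14719 genes were tested in the first, 16705 in the second).

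The cells were wild-type (WT) equine tenocytes, the resident fibroblasts of tendon, taken from the superficial digital flexor tendon of Thoroughbred horses and passaged in serum-containing medium. They were then cultured in 3D gels of bovine type I collagen and harvested on day 14, and each library holds the bulk mRNA of 1 culture of 1 donor line. In the first batch, lines 1 to 5 were kept as control (0 nM IL-1β) or with 1 nM IL-1β, an inflammatory cytokine, which gave 10 libraries. In the second batch, lines 6 to 8 were kept as control, with 1 nM IL-1β, or with 1 nM IL-1β and 100 ng/ml of IL1Ra, the natural antagonist of the IL-1 receptor, which gave 9 libraries. None of the 19 libraries is of cells given IL1Ra without IL-1β.

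The deposited values are normalised counts, taken here to be reads assigned to a gene and scaled between libraries. With M for counts × 1e6, a library summed to 43.4 to 49.2 M in the first batch and to 25.0 to 34.6 M in the second. Type I collagen was abundant in every group (COL1A2 had the highest mean of the tenocyte markers), whereas the tendon marker TNMD was at 0 in every library of 4 of the 5 groups. The endothelial markers VWF, PECAM1 and 4 others summed to no more than 92.0 normalised counts in any library. In the first batch the 10 leukocyte markers, led by CD14 and CD68, summed to 320 to 2319 normalised counts in control libraries and 549 to 3973 with IL-1β, with CD3E and CD79A at 0. Of the 2 leukocyte markers tested, 1 was DE and higher, as were 722 of the 14719 genes tested. The 5 mural and muscle markers, led by ACTA2, summed to 33443 to 91454 and 11763 to 25126, with 4 of 5 DE and lower. Of the 9 tenocyte markers tested, 6 were DE and lower. The mean of 2 others was higher with IL-1β, 1 of them with an adjusted p under 0.05. Over all genes tested 7.90% were DE and lower. The 4 epithelial markers, led by CDH1, summed to 1416 to 3906 in control and 21.8 to 544 with IL-1β, with CDH1 DE at a log2-fold change of −4.75, while EPCAM was at 0 in every control. In the second batch the leukocyte list summed to 510 to 1555 in control, 960 to 3389 with IL-1β and 1008 to 2346 with IL-1β + IL1Ra, and the epithelial list to no more than 109 in any library. The mural and muscle list there summed to 7679 to 52696 in control, 6010 to 18722 with IL-1β and 2646 to 17117 with IL-1β + IL1Ra. The part of these marker changes in the results below was not tested.

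Before a cell divides, the origin recognition complex, CDC6 and CDT1 load rings of MCM2 to MCM7 onto DNA, and CDC45 and the GINS complex then turn each ring into an active helicase. Polymerase alpha with primase starts each new strand, polymerases delta and epsilon extend it while held by the sliding clamp PCNA, and FEN1 and LIG1 join the pieces of the lagging strand. Many of these genes are transcribed mainly in cells that are cycling, under E2F transcription factors, and mature tendon is a tissue of little cell division.

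With IL-1β, the mean of every one of the 36 replication genes was below control in the first batch. Over the 36 genes the log2-fold change had a median of −0.64, beside −0.0034 over all genes tested, and single genes ranged from −1.09 for MCM5 to −0.01 for PCNA. No replication gene was DE, which takes an adjusted p under 0.05 (limma, Benjamini-Hochberg over all genes tested) and a change of 1 or more in size on the log2 scale, whereas 12.8% of all genes tested were DE in either direction. By adjusted p alone, 8 of the 36 (22.2%) fell, beside 14.6% of all genes. Without adjustment, limma gave 17 of the 36 a p under 0.05, all of them lower. Of the 14719 genes tested 5814 had one, 3025 of them lower. The 8 were MCM6, GINS1, POLA1, PRIM2, POLD1, RFC1, RFC3 and RFC5. Leaving out line 1, 2, 3, 4 or 5 gave 4, 2, 11, 5 and 5 genes, and RFC1 and RFC5 passed each time. The share of all genes that passed in each of these fits is not given here. POLA1 and PRIM2 missed only without line 2, GINS1 without line 1, 2 or 5, POLD1 without line 1, 2 or 4, and MCM6 and RFC3 without line 1, 2, 4 or 5. In bulk RNA, fewer cycling cells and less replication mRNA in each cell cannot be told apart.

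Each line gave 1 control and 1 IL-1β library, so the line can also enter the fit as a block. With that block 18 of the 36 genes fell by adjusted p alone, where 22.4% of all genes did, and 1 of them, MCM5, passed the fold threshold as well (10.2% of all genes were DE and lower in that fit). The 18 were MCM2, MCM4, MCM5, MCM6, GINS1, GINS2, GINS3, POLA1, PRIM2, POLD1, RFC1, RFC2, RFC3, RFC4, RFC5, LIG1, RRM1 and CHAF1B. In 6 genes (GINS1, POLA1, PRIM2, RFC1, RFC3 and RFC5) all 5 IL-1β libraries lay below all 5 control libraries, which is 16.7% of the 36 beside 10.2% of all genes tested.

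The size of the change differed between lines. In line 2 all 36 genes were lower with IL-1β, with a median within-line log2 ratio of −1.48, and in line 1 35 were lower with a median of −0.87. In line 4 the count was 32 and the median −0.54. Lines 3 and 5 were close to their controls, with 25 and 22 genes lower and medians of −0.17 and −0.11. Over all genes tested the median ratio within a line was never further from 0 than −0.02. Without line 2 the median over the 36 genes was −0.43, and FEN1, ORC6 and PCNA were no longer lower on average.

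**Figure D1:**
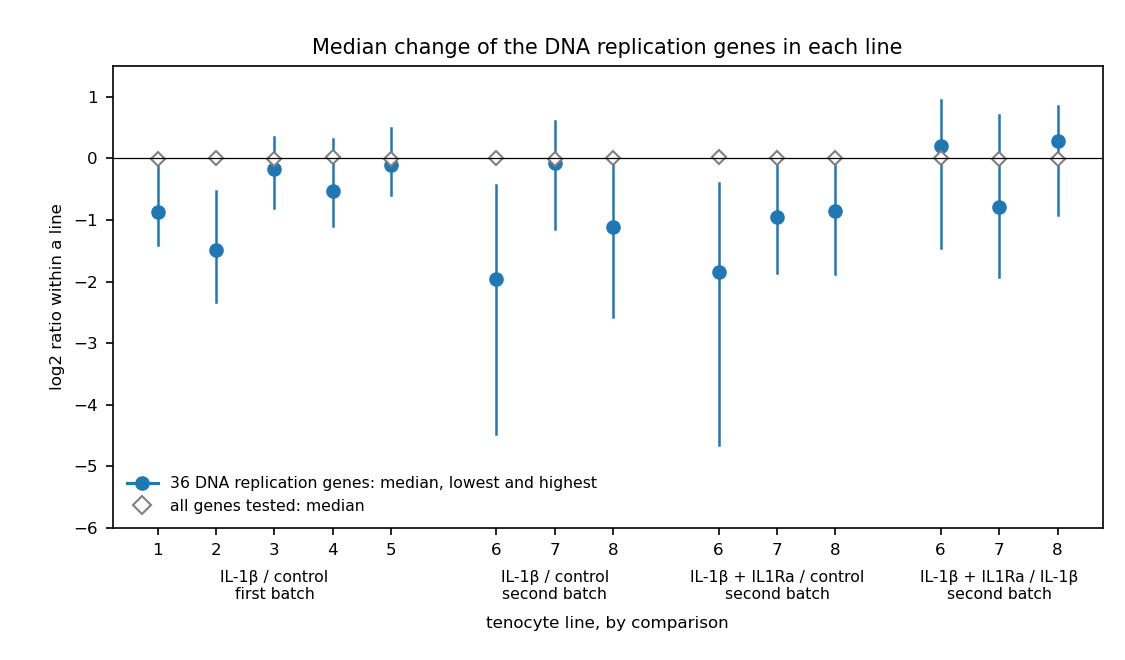
Median log2 ratio within each tenocyte line for the 36 DNA replication genes (filled circles; bars run from the lowest to the highest gene) and for all genes tested (open diamonds), by comparison and line. The replication genes lay furthest below 0 in lines 2 and 6 and closest to 0 with IL-1β alone in lines 3, 5 and 7, while the medians of all genes stayed near 0.

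Summed over the 36 genes, the control libraries of lines 1 to 5 held 62586, 86180, 30791, 34804 and 42333 normalised counts. The corresponding IL-1β libraries held 36162, 32394, 27399, 25774 and 38945. The controls of lines 1 and 2 stood above the other 3, and the IL-1β libraries lay closer together. The spread between lines was smaller with IL-1β than in control for 35 of the 36 genes, with a median SD on the log2 scale of 0.29 against 0.60, whereas over all genes tested it was 0.29 against 0.28. Leaving out line 2, a choice made after seeing the data, left 31 of 36 with the smaller spread and medians of 0.33 and 0.47. The second batch went the other way, with a smaller spread with IL-1β in 1 of the 36 genes. The median SD there was 0.88 against 0.39 in control (0.50 against 0.37 over all genes tested). Leaving out line 6, 7 or 8, a choice made after seeing the data, gave 0, 30 and 0 of the 36 with the smaller spread. The share of all genes in these settings is not given here.

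**Figure D2:**
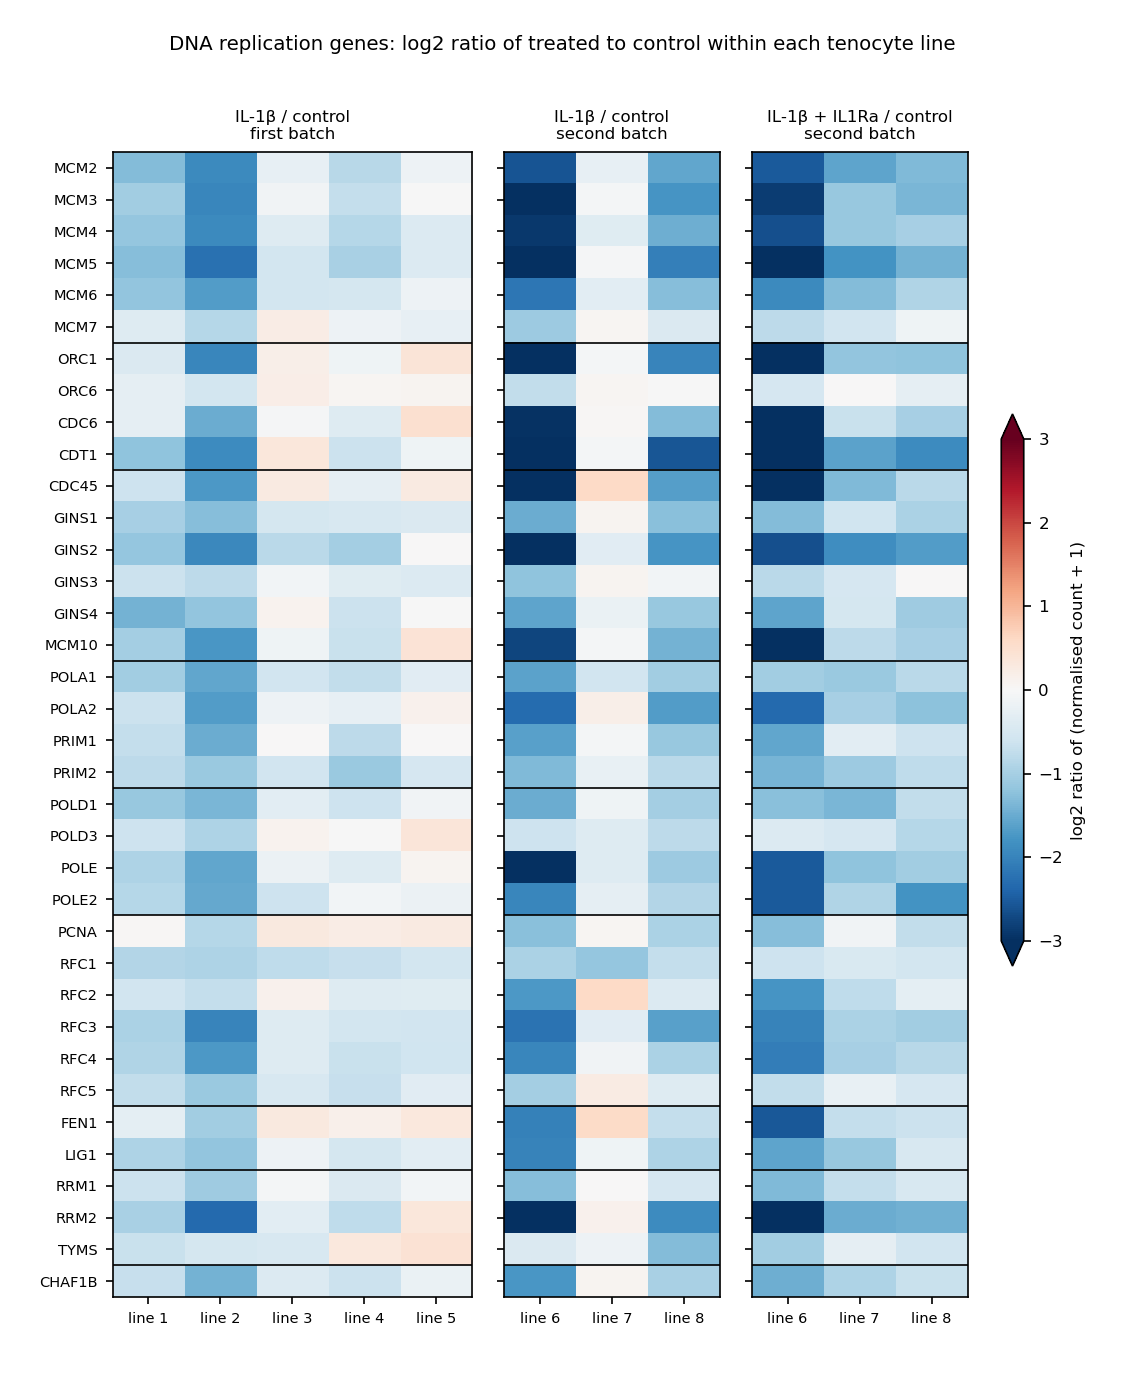
Log2 ratio of (normalised count + 1) in the treated against the control library of the same line, for each of the 36 DNA replication genes (rows, grouped by role) and each line (columns). Blue marks a lower value than control and red a higher one, and the colour scale ends at −3 and 3. Lines 2, 6 and 8 are blue in almost every row, line 7 is pale with IL-1β alone and blue with IL-1β + IL1Ra, and RFC1 is blue in every column.

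Among the 6 subunits of the MCM2-7 helicase, which unwinds the double strand, the median log2-fold change in the first batch was −0.85, the lowest of the 9 roles. MCM6 was at 5564, 6893, 2650, 2985 and 3562 normalised counts in the controls of lines 1 to 5 and at 2440, 2174, 1812, 2083 and 3216 with IL-1β. It was lower in all 5 lines although the groups overlapped, and its log2-fold change was −0.81 ± 0.27 (SE, n = 5 lines; adjusted p = 0.0428). MCM4 went from 2732 ± 1443 to 1299 ± 305 normalised counts (mean ± SD), a log2-fold change of −0.94 ± 0.33 with an adjusted p of 0.0562 without the block and 0.0153 with it. MCM5, singled out after its values were seen, had 5119, 8831, 1293, 2042 and 3375 normalised counts in control and 2110, 1868, 887, 1042 and 2526 with IL-1β. Its mean change was larger than that of MCM6, but its control lines spanned a wider range, and its adjusted p was 0.129 without the block and 0.0151 with it. MCM7 moved least of the 6, with a log2-fold change of −0.28 (adjusted p = 0.269), and was higher with IL-1β in line 3.

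The genes that mark and license origins gave no call in either fit. CDT1, which brings the MCM ring to DNA, was at 697, 981, 145, 175 and 397 normalised counts in control and at 300, 266, 185, 112 and 362 with IL-1β. It was lower in 4 of 5 lines and higher in line 3, with a log2-fold change of −0.70 ± 0.55 (adjusted p = 0.370). CDC6, the ATPase that loads the ring with CDT1, had −0.34 ± 0.53 (adjusted p = 0.670). ORC1 and ORC6, subunits of the origin recognition complex, had −0.39 and −0.10 and were lower in 3 and 2 of the 5 lines.

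GINS1 and GINS3 belong to the GINS complex that activates the helicase. GINS1 was at 1313, 1368, 756, 696 and 917 normalised counts in control and at 654, 563, 524, 495 and 676 with IL-1β. All 5 IL-1β libraries lay below all controls, and GINS1 fell by 0.75 on the log2 scale (SE 0.205, adjusted p = 0.0211). GINS3 had −0.46 ± 0.17, with an adjusted p of 0.0687 without the block and 0.0315 with it. CDC45, which joins GINS in the active helicase, had −0.41 ± 0.66 and was lower in 3 of 5 lines.

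Polymerase alpha and primase lay down the RNA-DNA primers. POLA1, the catalytic subunit of polymerase alpha, was at 1072, 1169, 571, 756 and 700 normalised counts in control and at 518, 396, 383, 452 and 552 with IL-1β. The groups did not overlap, and POLA1 fell by 0.85 on the log2 scale (SE 0.209, adjusted p = 0.0125). PRIM2, the large primase subunit, was at 789, 823, 676, 533 and 537 in control and at 454, 382, 450, 248 and 378 with IL-1β, again without overlap, and fell by 0.82 (SE 0.201, adjusted p = 0.0128). Their partners POLA2 and PRIM1 had −0.52 and −0.59 and did not pass.

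POLD1, the catalytic subunit of polymerase delta, was at 1227, 1583, 725, 803 and 932 normalised counts in control and at 558, 608, 579, 518 and 872 with IL-1β. It was lower in every line, and only the IL-1β library of line 5 reached into the range of the controls. It fell by 0.71 on the log2 scale (SE 0.226, adjusted p = 0.0381). POLE, the catalytic subunit of polymerase epsilon, had −0.59 ± 0.34 (adjusted p = 0.221), and POLD3, an accessory subunit of polymerase delta, −0.22 ± 0.23.

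**Figure D3:**
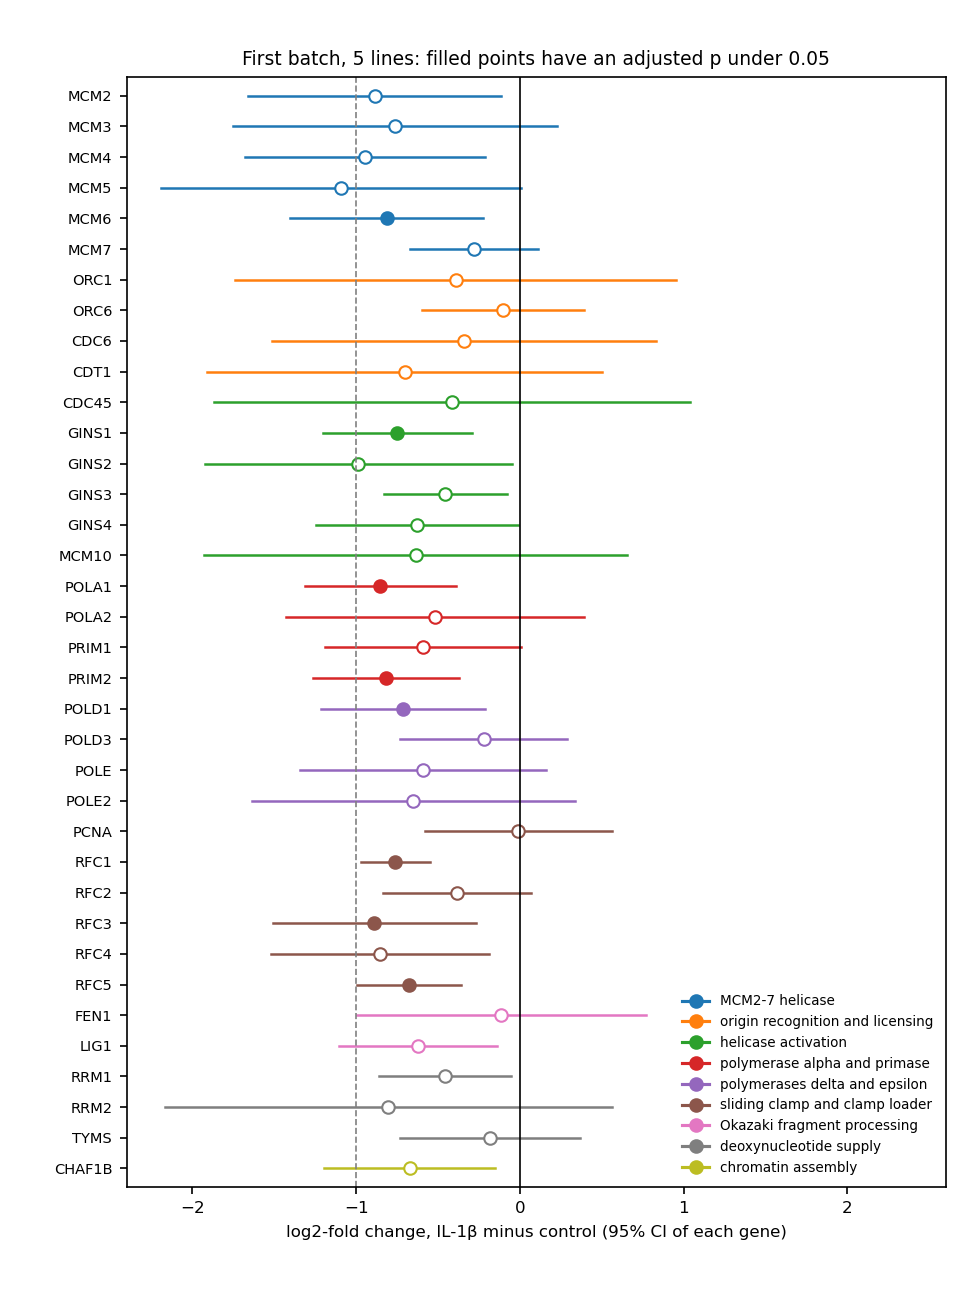
Log2-fold change of each DNA replication gene in the first batch, IL-1β minus control, with its 95% confidence interval (5 lines per condition, colours by role). Filled points mark the 8 genes with an adjusted p under 0.05, the dashed line marks −1, and all 36 points lie at or below 0, with RFC1 having the narrowest interval and PCNA the point nearest to 0.

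The clamp loader opens the PCNA ring and closes it around DNA. RFC1, its large subunit, was at 1857, 1814, 1959, 1823 and 1517 normalised counts in control and at 1008, 956, 1150, 1137 and 1036 with IL-1β. The 2 groups were far apart and each was tight, and RFC1 fell by 0.76 on the log2 scale (SE 0.0951, 95% CI −0.97 to −0.55, adjusted p = 0.000391), the smallest adjusted p of the 36 genes. RFC5, a small subunit, fell by 0.68 (SE 0.144, adjusted p = 0.00647) and RFC3, named because it is one of the 8 genes called, by 0.89 (SE 0.280, adjusted p = 0.0376). PCNA itself, singled out after its values were seen, was at 2927, 4368, 1928, 1562 and 1921 normalised counts in control and at 3006, 2428, 2354, 1813 and 2302 with IL-1β. It was higher with IL-1β in 4 of 5 lines and lower only in line 2, and the 95% CI of its log2-fold change ran from −0.58 to 0.56 (adjusted p = 0.985).

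The genes of Okazaki fragment processing were split. LIG1, the ligase that seals the fragments, was at 1963, 2803, 1180, 1324 and 1678 normalised counts in control and at 1039, 1227, 1058, 919 and 1346 with IL-1β. It was lower in every line, with −0.62 ± 0.22 and an adjusted p of 0.0566 without the block and 0.0196 with it. FEN1, the nuclease that trims the flaps, had −0.11 ± 0.40 (adjusted p = 0.865) and was higher with IL-1β in 3 of 5 lines.

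RRM1 and RRM2 form ribonucleotide reductase, which makes deoxynucleotides. RRM1 had −0.46 ± 0.18, with an adjusted p of 0.0878 without the block and 0.0481 with it, and was lower in every line. RRM2, the small subunit whose level follows the cell cycle, was at 3891, 6761, 743, 1059 and 1588 normalised counts in control and at 1996, 1350, 600, 624 and 2008 with IL-1β. Control lines 1 and 2 stood far above the other 3, line 5 was higher with IL-1β, and its log2-fold change was −0.80 ± 0.62 (adjusted p = 0.365). TYMS, which makes thymidylate, had −0.18 ± 0.25. CHAF1B, the remaining subunit of CAF-1 that was measured, was lower in every line, with −0.67 ± 0.24 and an adjusted p of 0.0555 without the block and 0.0221 with it.

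With IL-1β in the second batch the mean of all 36 genes was again below control, with a median log2-fold change of −1.01 (−0.0084 over all genes tested) and 19 genes at −1 or below. No replication gene was DE by limma (0.341% of all genes tested were), and with the line as a block RFC1 alone fell by adjusted p (2.94% of all genes did). Without adjustment or block, limma gave 15 of the 36 a p under 0.05, all of them lower. Of the 16705 genes tested 1907 had one, 935 of them lower. In lines 6, 7 and 8, 32, 1 and 21 of the 36 had a within-line log2 ratio of −1 or below, beside 13.1%, 16.0% and 12.2% of all genes. With 3 lines the 95% CI of a gene reached a median of 1.05 to either side on the log2 scale. Scaling the libraries to equal totals moved the median of all genes by −0.19 in this comparison, and the 36 genes then had a median of −1.20.

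The 3 lines went separate ways. In line 6 all 36 genes were lower with IL-1β, with a median log2 ratio of −1.96, and in line 8 all 36 were lower with a median of −1.11. In line 7 there were 22 lower and 14 higher genes, with a median of −0.07. Line 7 had 663 normalised counts of IL6 in control and 136543 with IL-1β. Lines 6 and 8 had 127 and 216 in control and 168090 and 137101 with IL-1β. A link between IL6 and the replication genes of a line was not tested. Without line 7 the median over the 36 genes was −1.40 (a choice made after seeing the data). All 36 then lay lower in both IL-1β libraries than in both controls, as did 18.3% of all genes. Without line 6 this held for only 5 of the 36, beside 21.4% of all genes, and without line 8 for 20, beside 14.8%.

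MCM5, RRM2 and CDT1 show this pattern in its most marked form. Their log2-fold changes were the lowest of the 36 genes, whose median was −1.01. MCM5 was at 3512, 2364 and 1182 normalised counts in the controls of lines 6, 7 and 8 and at 222, 2302 and 282 with IL-1β. Lines 6 and 8 were far below their controls while line 7 kept its level, and the log2-fold change was −2.03 ± 0.84 (adjusted p = 0.414). RRM2 went from 3308, 2534 and 1532 to 147, 2754 and 415 and CDT1 from 404, 431 and 234 to 26.0, 411 and 38.6, with the same 2 lines low and line 7 at its control level.

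RFC1 was lower in line 7 as well. It was at 1420, 847 and 1009 normalised counts in control and at 730, 381 and 609 with IL-1β, and its log2 ratio of −1.15 in line 7 was the lowest of the 36 genes there. The groups did not overlap, and the log2-fold change was −0.95 ± 0.30 (adjusted p = 0.279 without the block and 0.0223 with it). POLA1 was at 585, 482 and 418 in control and at 192, 323 and 204 with IL-1β, also without overlap, with −1.07 ± 0.26 (adjusted p = 0.164 and, with the block, 0.0550). POLD3 and RFC3 were the other 2 genes whose groups did not overlap, which makes 4 of 36 (11.1%) beside 7.61% of all genes tested.

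With IL-1β + IL1Ra the comparison with the same control libraries asks how far the antagonist returned these genes to the control level. The mean of all 36 genes was below control, with a median log2-fold change of −1.21 (0.0095 over all genes tested) and 23 genes at −1 or below. In 30 of the 36 genes (83.3%) all 3 treated libraries lay below all 3 controls, where 5.96% of all genes tested did. The other 6 were ORC6, GINS3, PCNA, RFC1, RFC5 and TYMS. Leaving out 1 line at a time, a choice made after seeing the data, gave 32 to 34 genes without overlap, and without line 6 the share of all genes rose to 21.7%.

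No replication gene was DE between IL-1β + IL1Ra and control by limma, where 0.0120% of all genes tested were. With the block no replication gene passed by adjusted p either, where 0.0419% of all genes fell. The smallest adjusted p of the 36 was 0.595 without the block and 0.146 with it. Without adjustment or block, limma gave 23 of the 36 a p under 0.05, all of them lower. Of the 16705 genes tested 948 had one, 487 of them lower.

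The replication genes were low in all 3 lines here, including line 7. Median within-line log2 ratios were −1.84, −0.95 and −0.85 in lines 6, 7 and 8, with 36, 35 and 35 genes lower. MCM5 was at 341, 686 and 444 normalised counts with IL-1β + IL1Ra, against 3512, 2364 and 1182 in control, and differed by −2.18 ± 0.84 on the log2 scale (adjusted p = 0.827). CDC45 was at 15.7, 162 and 136 against 420, 405 and 237, also below every control. POLA1 was at 284, 221 and 239, and PRIM2 at 194, 239 and 233 against 510, 506 and 397 in control, with log2-fold changes of −0.99 and −1.08.

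**Figure D4:**
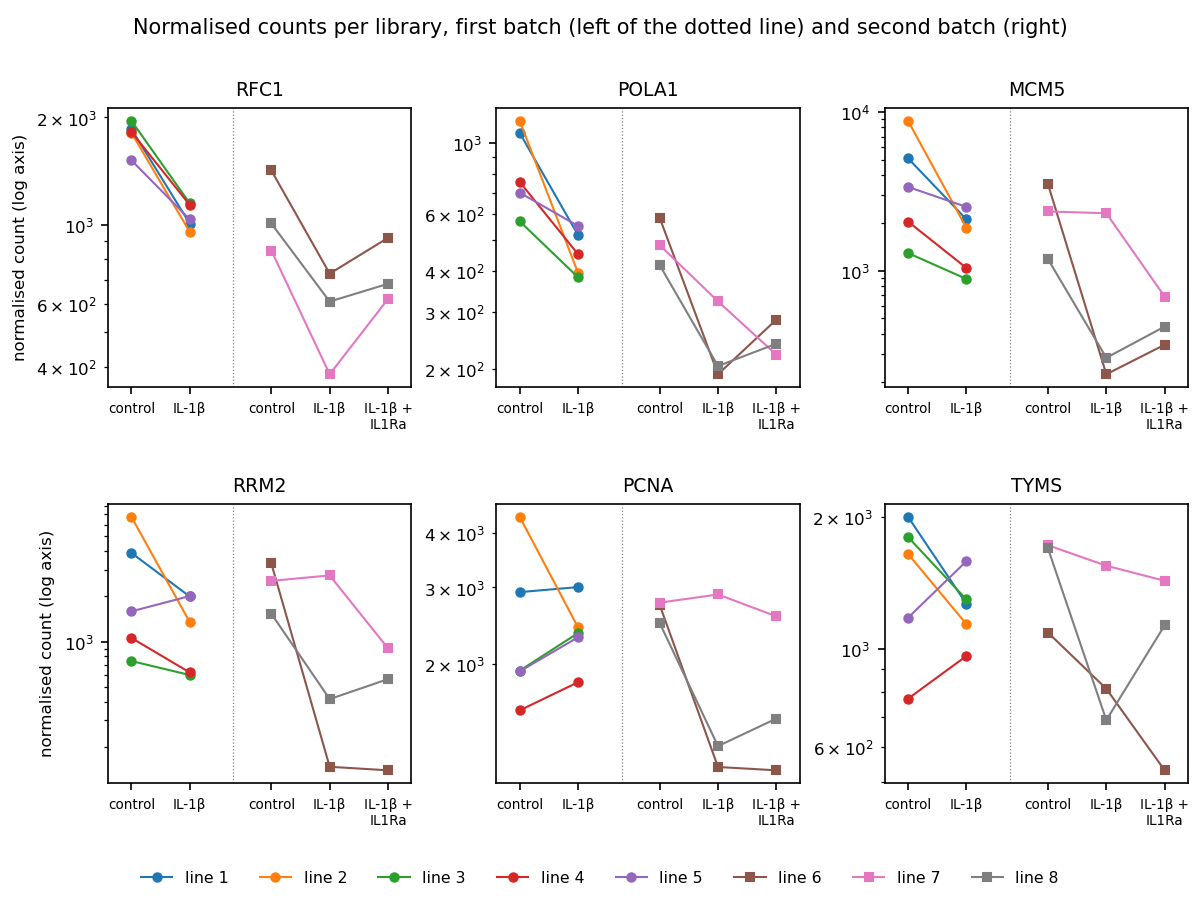
Normalised counts (log axis) of 6 DNA replication genes in every library, with lines joining the libraries of one tenocyte line, first batch left and second batch right of the dotted line. RFC1 and POLA1 were lower with IL-1β in all 8 lines, MCM5 and RRM2 of line 7 were low only with IL-1β + IL1Ra, and PCNA and TYMS overlapped between conditions. Genes were chosen after their values were seen, and levels are not comparable between the 2 batches.

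Between IL-1β + IL1Ra and IL-1β alone, none of the 36 genes was called in either fit (0% of all genes were DE and 0% fell with the block). Without the block 0 had an unadjusted p under 0.05 by limma, beside 464 of the 16705 genes tested. The median log2-fold change was −0.13 (0.0088 over all genes tested), with 30 genes lower and 6 higher, from −0.70 for POLE2 to 0.40 for RFC1. Under scaling to equal totals 20 genes were lower, and the median of all genes moved by 0.11. Without the block the 95% CI of the MCM5 difference ran from −2.09 to 1.77, that of POLA1 from −0.52 to 0.69 and that of RFC1 from −0.30 to 1.10. With the block they ran from −1.69 to 1.38, from −0.52 to 0.68 and from 0.019 to 0.78. RFC1 then had an unadjusted p of 0.0419 by limma (adjusted p = 0.566). With 3 lines, differences inside these intervals remained possible.

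The sign of that median depended on line 7. In line 7, 35 of the 36 genes were lower with IL-1β + IL1Ra than with IL-1β alone (median log2 ratio −0.79), whereas in lines 6 and 8 only 14 and 4 were lower (medians 0.21 and 0.28). Without line 7, 30 of the 36 genes were higher with IL1Ra present and the median was 0.23. RFC1 was higher with IL-1β + IL1Ra than with IL-1β in all 3 lines (919, 620 and 683 against 730, 381 and 609 normalised counts) and POLE2 lower in all 3 (37.6, 71.4 and 26.8 against 55.8, 111 and 51.8), both within the overlap of the groups. In lines 6, 7 and 8 the IL-1β + IL1Ra libraries held 13776, 201720 and 119246 normalised counts of IL6, against 168090, 136543 and 137101 with IL-1β alone. The chemokine gene CXCL8 was lower with IL-1β + IL1Ra in all 3 lines, at 27.8, 20896 and 25689 against 22788, 252466 and 239411. In control it was at 28.4, 250 and 115, so it was back near control in line 6 and far above control in lines 7 and 8. With IL1Ra present, line 7 thus had higher IL6 and lower CXCL8 than with IL-1β alone.

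Other cell cycle genes were examined as lists. Of 20 mitosis genes, all 20 were lower with IL-1β in the first batch, 5 were DE (7.90% of all genes tested were DE and lower), and the median log2-fold change was −1.27. With the block 14 of the 20 fell by adjusted p, beside the 22.4% of all genes given above. CENPF, a kinetochore protein, fell by 1.82 on the log2 scale (adjusted p = 0.00772), the spindle motor KIF11 by 1.54 (adjusted p = 0.0256), and the checkpoint kinase BUB1 by 1.31 (adjusted p = 0.0378). KIF20A, a motor of cytokinesis, had a log2-fold change of −1.36 (adjusted p = 0.0357). In the second batch all 20 were lower with IL-1β (median −2.19) and with IL-1β + IL1Ra (median −2.24), and with IL-1β 1 of them, CENPF, fell by adjusted p with the block, beside 2.94% of all genes.

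The 7 inhibitors of cyclin-dependent kinases, of which 6 were tested, went in both directions in the first batch. By adjusted p 2 rose and 2 fell, where 13.1% of all genes tested rose and 14.6% fell. With the block 3 rose and 3 fell, where 20.9% and 22.4% of all genes did. CDKN1A (p21) rose by 1.70 ± 0.18 on the log2 scale (adjusted p = 0.000193) and CDKN2B (p15) by 1.60 ± 0.31 (adjusted p = 0.00417), each higher in all 5 lines. CDKN2C fell by 0.95 (adjusted p = 0.0369) and CDKN2D fell by 0.44 (adjusted p = 0.0344). CDKN1A and CDKN2B rose with IL-1β in the second batch by adjusted p only with the block (0.0240 and 0.0163, where 3.16% of all genes rose), and both were higher in all 3 lines, line 7 included.

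Among 26 E2F and G1/S regulators, 3 fell and 1 rose by adjusted p in the first batch, shares below the 14.6% and 13.1% of all genes. With the block 6 fell and 4 rose, where 22.4% and 20.9% of all genes did. The repressor E2F7 fell by 1.32 (adjusted p = 0.0170), MYC, a transcription factor that drives growth, by 0.71 (adjusted p = 0.00939), and the E2F partner TFDP1 by 0.43 (adjusted p = 0.0478), while E2F3 rose by 0.48 (adjusted p = 0.00849). Of 12 replication checkpoint genes 1 was called, the ATR activator ETAA1, which fell by 0.40 (adjusted p = 0.0304), and with the block 3 fell, beside 14.6% and 22.4% of all genes. The kinases CHEK1 and ATR and the loader RAD17 had −0.85, 0.23 and 0.23 with adjusted p from 0.0635 to 0.106.

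Of 39 further replication genes tested, 30 were lower and 9 higher with IL-1β in the first batch, with a median of −0.27, and 7 fell and 5 rose by adjusted p, near the 14.6% and 13.1% of all genes. With the block 12 fell and 5 rose, where 22.4% and 20.9% of all genes did. RNASEH2B, a subunit of the nuclease that removes RNA from DNA, fell by 1.26 (adjusted p = 0.00231). RPA3, a subunit of the complex that coats single-stranded DNA, rose by 1.38 (adjusted p = 0.00695), RRM2B, the p53-responsive counterpart of RRM2, by 0.90 (adjusted p = 0.00558) and ORC4 of the origin recognition complex by 0.52 (adjusted p = 0.00435), each in all 5 lines. RPA2 and DSCC1, named after their values were seen, were the other 2 that rose. Among the 7 that fell were also MCMBP, by 0.35 (adjusted p = 0.0108), and ORC3, by 0.47 (adjusted p = 0.0318). Both were lower in all 5 lines and were likewise named after their values were seen.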

How the data were processed

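RNA was sequenced from 19 cultures (stranded mRNA libraries). The deposited values are a signal, namely counts normalised by the authors, in 1 table per batch: reads were quantified on transcripts of EquCab3.0 using Salmon, totalled per gene and divided by the size factors of DESeq2 (version 1.36, in R 4.2.1). The batches were normalised separately, so tests stayed within a batch. In the low values 65.1% to 77.5% were whole multiples of 1 read (within 0.05), which was too few to recover reads, so a count model was not used, and fold changes on log2(normalised count + 1) understate low genes. Sums of counts were lower in the second batch, and the effect of depth was not tested.

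A gene was tested when 5 libraries of the first batch, or 3 of the second, reached 10 normalised counts. The model was limma 3.58.1 (lmFit, eBayes with trend, R 4.3.3), with the 3 conditions of the second batch in 1 fit and Benjamini-Hochberg adjustment over all genes tested. A gene was DE when its adjusted p lay under 0.05 and its log2-fold change was 1 or more in size. A 95% CI is that of a single gene. The fit was tested on simulated data with changes of 2 on the log2 scale, larger than the median changes of the replication genes. How well it finds smaller changes was not tested.

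Libraries of 1 line come from 1 donor, which pairs them. Deviations from the condition means correlated within a line at 0.351 to 0.578 (5 pairs, first batch) and 0.535 to 0.794 (9 pairs, second batch), and between lines at −0.356 to 0.288 and −0.625 to 0.249. A block for the line was 1 alternative. Others were pseudocounts, filters, scalings, no trend, 2 conditions only and leaving out each line.

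The genes and lists were chosen with earlier results of these data known. Genes given in full are, per role, the 1 or 2 with the smallest adjusted p in the first batch, plus those called in the second. Library values of MCM5, PCNA, CDC45 and POLE2 are given outside this rule, with their values known. Of each further list the 4 smallest are named. Genes were matched by the names in the tables, with no sequence or coordinates used here.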

Additional observations from a re-analysis of the deposited data

Results flagged for a closer look

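Among the 72 groups of 5 libraries tested (36 genes, 2 conditions of the first batch), 2 held a library far from the other 4, and chance alone flags about 1 group in 20. PRIM1, the small primase subunit, was at 311 normalised counts in the IL-1β library of line 4, below the next lowest at 435. POLD1 was at 872 normalised counts in the IL-1β library of line 5, above the next highest at 608. No explanation for either was tested.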

How the results depend on the processing

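In the first batch 0 replication genes were DE, 8 passed by adjusted p alone, 1 with the tenocyte line as a replicate block (MCM5) and 18 with that block by adjusted p alone. Leaving out each line gave 0 to 2 DE genes. By adjusted p alone, equal totals or equal upper quartiles gave 11 and 12. The share of all genes called under these settings is not given here, so shifts in these counts cannot be set against all genes. Leaving out each line gave FEN1 a log2-fold change of −0.22 to 0.12, above 0 only without line 2. In the second batch 1 gene (RFC1) passed with the block by adjusted p alone, and the other settings tried gave 0 in all 3 comparisons. The block changed no other call of DE. Single genes (1 or 2 per role) were followed under the alternatives in the comparisons with control. Of these values 601 kept their direction and side of the threshold, 13 newly passed, 14 no longer passed and 1 changed direction. In the second batch no replication gene passed in the main fit, so none there could stop passing. The median over the 36 genes ranged from −0.78 to −0.43 in the first batch, from −1.40 to −0.61 with IL-1β and from −1.42 to −0.90 with IL-1β + IL1Ra in the second. Between IL-1β + IL1Ra and IL-1β it ranged from −0.37 to 0.23 and was above 0 only without line 7. The causes of these shifts were not tested beyond the line left out. The second batch had 3 lines and lower sums of counts, and the effect of depth on its calls was not tested.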
